A study of Homo sapiens with 9 samples.

Results

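The KAS peaks on the arms of human chromosome 19 are stretches where single-stranded DNA was captured from differentiated HL-60 cells, a promyelocytic leukaemia line that can be turned into neutrophil-like cells. They were selected on measured values, namely the authors' peak calls and the summit position: every peak of the KAS list on chromosome 19 was taken whose summit lay outside 24500000 to 27200000 (GRCh38), a window around the centromere. The rule took 2266 of the 34247 peaks of the list, 1242 on the p arm and 1024 on the q arm, and left 99 chromosome 19 peaks in the window. In the KAS library, differentiated HL-60 cells were induced to release their DNA for 4 h and then given 5 mM N3-kethoxal for 10 min, with no thrombin named in its protocol and the inducer named through another protocol of the series. Its treatment label reads pulldown, as do those of the thrombin libraries. In the 4 thrombin pulldown libraries, the cells were induced with 500 nM PMA for 4 h and then given 1 µM biotinylated thrombin for 1 h, and DNA held by thrombin was captured. Another 4 input libraries were not analysed here. No label says whether the 4 pulldown replicates came from separate cultures, and all libraries are of 1 cell line. There is 1 KAS library, so the KAS values have no replicate check and no test. The lists give no library totals, so depth is unknown.

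KAS-seq relies on N3-kethoxal, a small molecule that reacts with guanines that are not base-paired, so that a biotin can be attached and the tagged DNA captured. In living cells such guanines are found in transcription bubbles, in R-loops and in other melted DNA. Neutrophils that undergo NETosis, which PMA sets off, release decondensed chromatin as extracellular traps, and thrombin, the central protease of coagulation, binds DNA. Chromosome 19 is the human chromosome richest in genes, and it carries large tandem clusters of zinc finger genes, many of which encode KRAB repressors of transposable elements and lie in heterochromatin in many cell types.

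Promoter windows, the 250 bases before to 50 bases after a gene's start in the RefSeq GRCh38.p14 promoter table, rarely held an arm peak. Of 1917 windows on the arms, 27 shared at least 1 base with a KAS peak (1.41%, exact 95% interval 0.930 to 2.04), where the genome-wide share was 0.866%. The share was 1 of 307 windows of ZNF genes, against 26 of 1610 windows of other genes. Median GC content was 60.7% in the ZNF windows and 63.3% in the others. The windows shown are the ZNF window with a peak, the 3 other protein-coding windows of highest fold with the summit inside them, and the ZNF window without a peak whose GC content is the median of its kind. They were chosen after their values were seen. Each is written 5′ to 3′ on the gene's strand, and capitals mark the bases under the KAS peak.
ZNF358, chr19:7515853-7516152, + strand: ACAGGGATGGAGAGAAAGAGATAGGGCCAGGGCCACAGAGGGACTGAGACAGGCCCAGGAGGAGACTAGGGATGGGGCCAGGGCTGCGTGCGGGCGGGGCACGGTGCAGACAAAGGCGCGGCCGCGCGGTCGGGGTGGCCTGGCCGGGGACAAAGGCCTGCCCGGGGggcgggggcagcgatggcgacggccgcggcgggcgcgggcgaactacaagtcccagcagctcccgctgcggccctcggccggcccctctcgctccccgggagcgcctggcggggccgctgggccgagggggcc
MIER2, chr19:344425-344724, - strand: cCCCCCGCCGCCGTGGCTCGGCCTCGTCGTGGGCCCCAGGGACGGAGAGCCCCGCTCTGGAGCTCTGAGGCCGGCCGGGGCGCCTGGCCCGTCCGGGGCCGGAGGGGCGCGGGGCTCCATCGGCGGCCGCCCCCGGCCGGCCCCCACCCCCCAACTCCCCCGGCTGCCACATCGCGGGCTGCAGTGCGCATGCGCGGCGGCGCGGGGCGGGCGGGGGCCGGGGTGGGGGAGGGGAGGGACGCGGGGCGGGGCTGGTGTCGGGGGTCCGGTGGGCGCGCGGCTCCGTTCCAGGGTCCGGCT
LMNB2, chr19:2456910-2457209, - strand: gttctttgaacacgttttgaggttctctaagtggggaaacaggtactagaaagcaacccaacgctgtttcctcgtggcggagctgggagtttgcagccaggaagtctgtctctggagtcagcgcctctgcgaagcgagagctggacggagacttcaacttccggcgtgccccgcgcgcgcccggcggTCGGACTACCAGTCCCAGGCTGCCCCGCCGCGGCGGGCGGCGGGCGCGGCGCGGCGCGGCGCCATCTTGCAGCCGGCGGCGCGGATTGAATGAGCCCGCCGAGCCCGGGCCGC
SMARCA4, chr19:10960780-10961079, + strand: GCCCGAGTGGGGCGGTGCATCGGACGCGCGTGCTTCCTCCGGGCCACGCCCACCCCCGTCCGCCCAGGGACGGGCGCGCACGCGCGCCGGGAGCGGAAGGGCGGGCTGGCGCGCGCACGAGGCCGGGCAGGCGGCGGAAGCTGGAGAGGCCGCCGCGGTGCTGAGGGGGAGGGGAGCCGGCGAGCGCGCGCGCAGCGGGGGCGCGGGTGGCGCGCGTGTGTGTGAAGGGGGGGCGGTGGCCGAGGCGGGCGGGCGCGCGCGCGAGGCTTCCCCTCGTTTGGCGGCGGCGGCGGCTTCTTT
ZNF136, chr19:12162846-12163145, + strand: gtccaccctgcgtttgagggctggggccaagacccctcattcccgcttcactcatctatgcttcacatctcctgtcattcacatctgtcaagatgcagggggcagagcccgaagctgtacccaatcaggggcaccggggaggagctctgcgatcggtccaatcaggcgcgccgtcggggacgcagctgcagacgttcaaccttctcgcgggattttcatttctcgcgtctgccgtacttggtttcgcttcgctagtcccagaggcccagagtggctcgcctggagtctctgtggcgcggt
ZNF358 encodes a zinc finger protein, and its window is 76.3% GC with 167 bases under a peak of fold 6.18. MIER2, which encodes a transcriptional co-repressor, has a window of 83.7% GC and a peak of fold 7.87. LMNB2 encodes lamin B2 of the nuclear lamina, and its window is 67.7% GC with a peak of fold 6.60. SMARCA4 encodes the BRG1 ATPase of SWI/SNF chromatin remodellers, and all 300 bases of its window, 81.3% GC, lie under a peak of fold 6.21. ZNF136 has a window of 60.7% GC and no peak.

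The promoter windows with a peak were richer in GC than those without. Median GC content was 77.3% in the 27 windows with a peak, against 62.7% in the 1890 without. Among windows of at least 75% GC, 15 of 175 held a peak (8.57%, 4.88 to 13.7), against 7 of 823 windows of 60 to 70% GC (0.851%, 0.343 to 1.74) and 0 of 175 windows under 50% GC. The same steps on the other chromosomes gave 5.62%, 0.353% and 0.0757%. A motif of 4 runs of GGG, or of CCC for the other strand, with 1 to 7 bases between runs, was in 15 of the 27 windows with a peak (55.6%), against 32.3% of those without and 25.0% of all 35116 windows of the table. On the other chromosomes it was in 67.9% of windows with a peak and 24.2% of those without. These shares were not matched for GC content, so the motif and GC content cannot be told apart here. A pair of ATTCC copies side by side, read on either strand, was in 0 of the 27 windows and in 0.0740% of all windows. The motifs were counted separately, whatever their overlap, and a match in a window is a match of letters only.

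**Figure D1:**
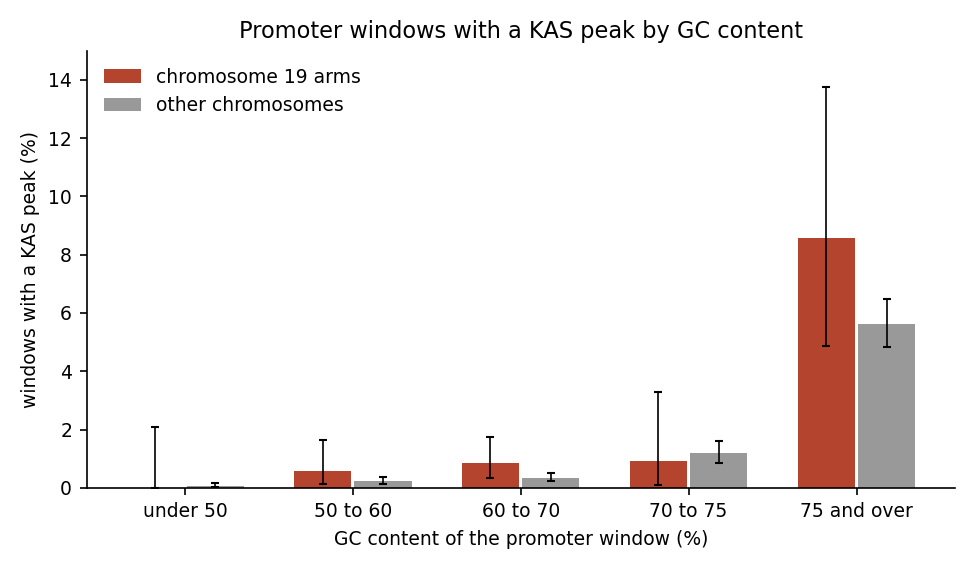
Share of promoter windows with at least 1 KAS peak (%) by GC content of the window (%), for the chromosome 19 arms (red) and the other chromosomes (grey), with exact 95% binomial intervals as bars. The step of 75% and over holds 8.57% on the arms and 5.62% elsewhere, and every other step is under 1.2%.

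Of the 2266 arm peaks, 27 (1.19%) lay on a promoter window, against 0.718% of the peaks of other chromosomes. The arms carry more promoter windows for their length, 1917 over 55.9 Mb, against 33199 over 3029 Mb. These shares were not corrected for that, so they do not show a preference of arm peaks for promoters. In protein-coding genes of at least 10 kb whose strand the promoter table gives, 780 of 929 on the arms, the 1020 summits were spread along the whole gene. With each gene cut into 10 equal parts from its start, the first part held 11.7% of them and the last part 6.47%. On the other chromosomes the first part held 11.4% and the last part 8.18%.

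The arms were densely covered with KAS peaks. They held 40.5 peaks per Mb over 55.9 Mb (exact Poisson 95% interval 38.9 to 42.2), against 10.5 per Mb on the other chromosomes, a ratio of 3.85. Here and below, lengths of the other chromosomes run to their last peak or gene and include centromeres and assembly gaps. The ratios thus set arms without their centromere window against whole chromosomes. The p arm held 50.7 per Mb (47.9 to 53.6) and the q arm 32.6 per Mb (30.6 to 34.7), a ratio of 1.55. The densest of the other chromosomes were 22 with 23.4 per Mb and 20 with 19.6 per Mb, followed by 17 and 16 with 18.8 per Mb each. Intervals here and below cover counting error only, and neighbouring peaks are not independent.

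The arms carry 25.2 protein-coding genes per Mb, against 6.09 on the other chromosomes, and gene bodies cover 56.3% of their length, against 40.6%. Of the arm peaks, 1348 shared a base with a protein-coding gene (59.5%, 57.4 to 61.5), where the share over the whole KAS list was 45.2%. Per Mb the arms held 42.6 summits inside gene bodies and 37.9 outside them, a ratio of 1.13. On the other chromosomes the values were 11.4 inside and 9.91 outside, a ratio of 1.15. Set against the other chromosomes, the arms were thus 3.73 times as dense inside gene bodies and 3.82 times as dense outside them.

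Single arm peaks had folds and widths close to those of the rest of the list. Their authors' fold enrichment over background had a median of 5.18 (2.04 to 19.7) on the arms, against 5.43 in the rest of the list, and their median width was 260 bases, against 247. The median pileup, the number of reads stacked at the summit and not normalised between libraries, was 9 on the arms, against 10 in the rest. Of the peaks nearest the window, the last p arm member lay at 24181433 to 24181632 with a fold of 5.67, and the first q arm member at 27377691 to 27377964 with 3.76. Just outside the rule were the window peaks at 24722120 to 24722319 with a fold of 6.31 and at 27180388 to 27180617 with 4.36.

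Along the arms, the peaks were unevenly spread. The 54 full steps of 1 Mb held 3 to 100 peaks with a median of 36.5, 54 on the p arm and 28.5 on the q arm. The fullest was 4 to 5 Mb with 100 peaks, 29 protein-coding genes and no ZNF gene. After it came 3 to 4 Mb with 84 peaks, 10 to 11 Mb with 79, 8 to 9 Mb with 72 and 17 to 18 Mb with 71, all on the p arm and with 2 ZNF genes among them. The emptiest was 28 to 29 Mb with 3 peaks and no protein-coding gene, next to the centromere window on the q arm. The step of 54 to 55 Mb held 4 peaks although it carries 41 protein-coding genes, none of them a ZNF gene. The steps from 20 to 24 Mb on the p arm held 8, 13, 7 and 18 peaks, together 46, and carry 31 ZNF genes and 2 other protein-coding genes.

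Steps with more genes that are not ZNF genes tended to hold more peaks. Over the 54 steps, Spearman's rho between KAS peaks and genes was −0.265 (Pearson's r −0.262) for ZNF genes, against 0.599 (0.556) for other protein-coding genes, and 0.487 (0.476) for all of them. On the 24 p arm steps rho was −0.469 for ZNF genes and 0.718 for other genes, and on the 30 q arm steps it was −0.015 for ZNF genes and 0.519 for other genes. These are descriptions of 1 library, whose steps share their depth and lie next to each other. The 20 steps with at least 5 ZNF genes held a median of 23.5 peaks, against 47 in the 34 steps with fewer.

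**Figure D2:**
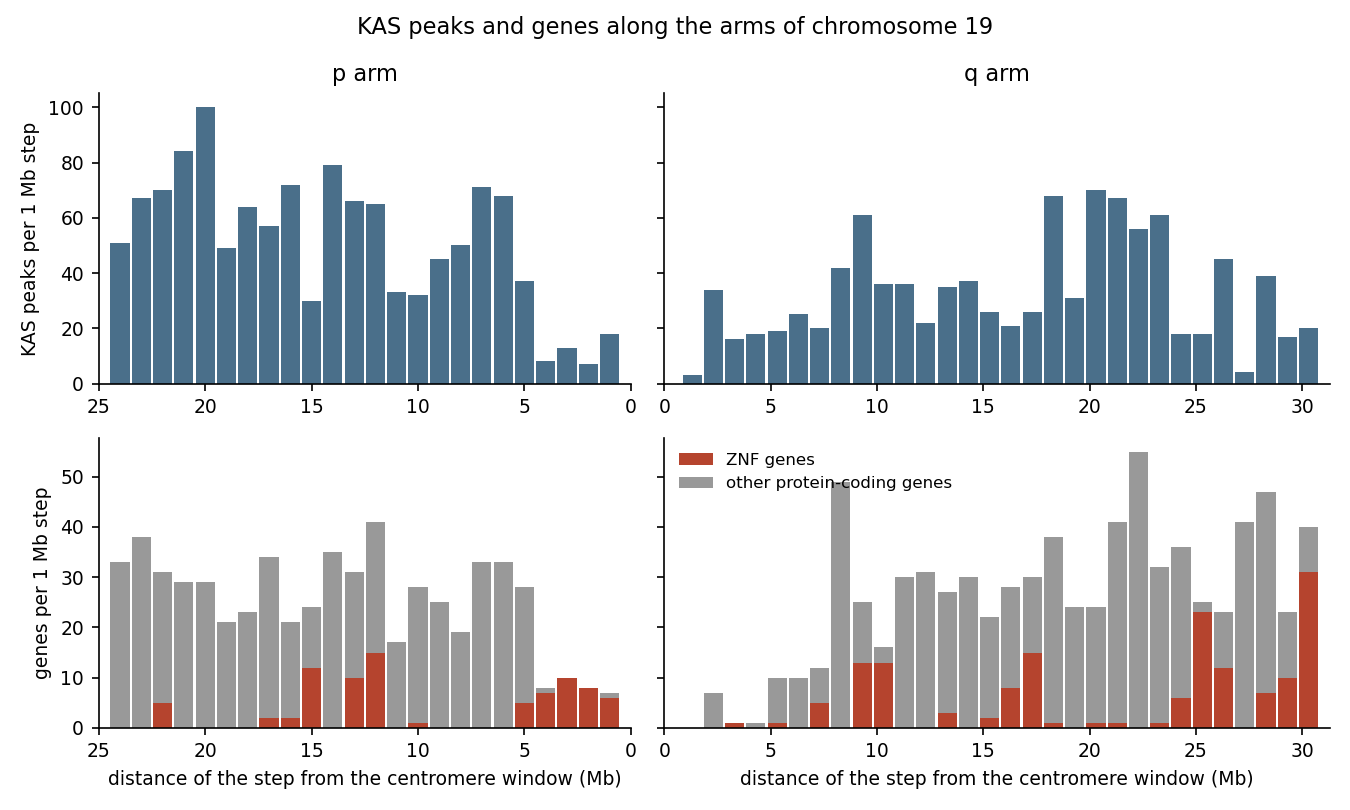
KAS peaks (upper row) and protein-coding genes (lower row, ZNF genes in red and others in grey) in each full 1 Mb step, by the distance of the step's middle from the centromere window (Mb), for the p arm (left) and the q arm (right). The p arm reaches 100 peaks far from the window and falls to 7 to 18 in the 4 steps nearest to it, where most genes are ZNF genes.

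ZNF genes held KAS peaks less densely than the other genes of the same arms. The annotation gives 250 protein-coding genes with a ZNF symbol and 1160 others on the arms. A peak lay in 96 ZNF genes (38.4%, Clopper-Pearson 95% interval 32.3 to 44.7), against 548 other genes (47.2%, 44.3 to 50.2), a ratio of 0.813 with a Katz log 95% interval of 0.687 to 0.962, where 36.0% of all protein-coding genes of the genome held one. ZNF genes were the longer ones, with a median of 23.3 kb, against 12.7 kb, and per Mb of gene body they held 19.8 summits, against 48.8. Among genes of 10 to 30 kb, 47 of 140 ZNF genes held a peak (33.6%, 25.8 to 42.0), against 274 of 470 others (58.3%, 53.7 to 62.8). Among genes of 30 to 100 kb it was 46 of 80 (57.5%, 45.9 to 68.5), against 167 of 207 (80.7%, 74.6 to 85.8). Under 10 kb it was 2 of 28, against 79 of 453, and over 100 kb it was 1 of 2, against 28 of 30. No source used here says how reads that match several ZNF gene copies were treated, and its part in these values was not tested.

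Over all lengths, the ZNF genes of the arms were close to ZNF genes elsewhere in the share with a peak. The other genes of the arms stood above genes elsewhere. Of 268 ZNF genes on other chromosomes, 101 held a peak (37.7%, 31.9 to 43.8), with 13.8 summits per Mb of gene body, against 19.8 on the arms. Lengths differed, with 31 of them over 100 kb, against 2 on the arms. At 10 to 30 kb 26.8% (19.2 to 35.6) held a peak, against 33.6% on the arms. At 30 to 100 kb it was 51.9% (40.5 to 63.1), against 57.5%. Under 10 kb it was 3 of 33, against 2 of 28, and over 100 kb 23 of 31, against 1 of 2. In the steps of 10 to 30 kb and of 30 to 100 kb, the share over all protein-coding genes of other chromosomes was 26.8% and 49.7%. A high share was not particular to the arms. On chromosome 22 it was 48.1% over all lengths (211 of 439), and 42.4% and 74.6% in these steps. Other genes that lie inside the ZNF clusters described next held a peak in 16 of 40 cases with 28.0 summits per Mb of gene body, against 532 of 1120 with 49.4 per Mb for those outside the clusters.

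**Figure D3:**
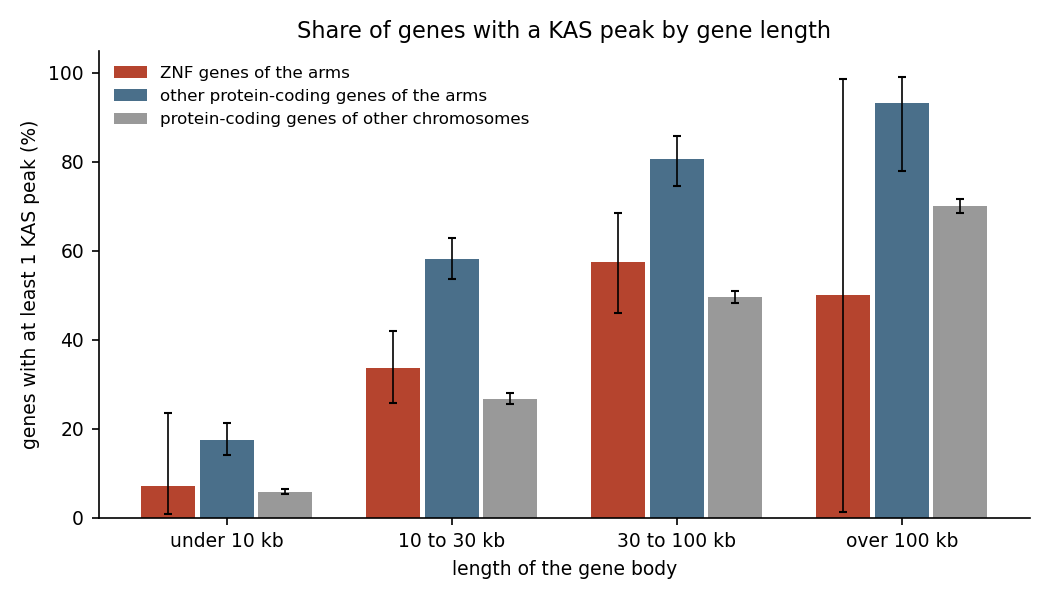
Share of protein-coding genes with at least 1 KAS peak (%) by length of the gene body, for ZNF genes of the arms (red), other genes of the arms (blue) and genes of other chromosomes (grey), with exact 95% binomial intervals. In each of the 4 length classes ZNF genes are below the other genes of the arms, 33.6% against 58.3% at 10 to 30 kb, and the class over 100 kb holds only 2 ZNF genes.

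Individual ZNF genes mostly had 1 peak. Of the 96 with a peak, 68 had exactly 1, 19 had 2 and 9 had more. The strongest was in ZNF567, at a fold of 10.7, followed by ZNF221 and ZNF253, both at 7.87, by ZNF415, ZNF574 and ZNF607, all at 7.30, by ZNF536 at 6.93, and by ZNF264, ZNF584 and ZNF625, all at 6.74. ZNF536 also had the most peaks, 11 over 488 kb, and is known as a neuronal repressor that stands alone outside the clusters. After it came ZNF331 and ZNF324B with 5 each, ZNF564 and ZNF490 with 4 each, and ZNF567, ZNF574, ZNF83 and ZNF653 with 3 each. Set against its length, ZNF574 was the densest of these named genes, with 22.9 peaks per 100 kb.

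Joined by gaps of at most 200 kb, ZNF genes formed 13 clusters of at least 5 genes, which held 224 of the 250 genes in 11.2 Mb. These clusters held 269 peaks, 24.0 per Mb (21.2 to 27.1), against 44.7 per Mb (42.7 to 46.7) in the rest of the arms, a ratio of 0.538. They made up 20.0% of the arms' length and held 11.9% of the peaks. On the p arm the ratio was 0.336, with 19.8 per Mb in clusters and 58.8 in the rest, and on the q arm 0.816, with 27.6 and 33.8. Of the 13 clusters 12 were below the 44.7 per Mb of the rest of both arms. In 9 of them the upper end of the interval was also below it. Against the 33.8 per Mb of the rest of the q arm, ZNF565 to ZNF573 (46.9) and ZNF628 to ZNF580 (35.5) were higher. The intervals of ZNF302 to ZNF792, ZNF582 to ZNF835 and ZNF264 to ZNF446 reached past 33.8, to 40.5, 35.4 and 40.2. Those of ZNF283 to ZNF180 and ZNF577 to ZNF331 ended below it, at 23.4 and 25.4. On the p arm, the interval of ZNF554 to ZNF77 reached past 58.8, to 70.1, and the others ended below. The sparsest was the cluster from ZNF737 to ZNF98 on the p arm, with 15 peaks over 1.89 Mb (7.93 per Mb, 4.44 to 13.1). ZNF283 to ZNF180 on the q arm had 11.9 per Mb and 20 ZNF genes.

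A pair of clusters was near the 44.7 per Mb of the rest of both arms. ZNF653 to ZNF791 on the p arm held 50 peaks, 43.5 per Mb (32.3 to 57.3), which is below the 58.8 per Mb of the rest of the p arm. ZNF565 to ZNF573 on the q arm held 75 peaks, 46.9 per Mb (36.9 to 58.8), of which 41 stood in the runs described next, and 21.3 per Mb without them. Without these runs the ratio of all clusters to the rest was 0.456, and that of the q arm clusters was 0.616.

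**Figure D4:**
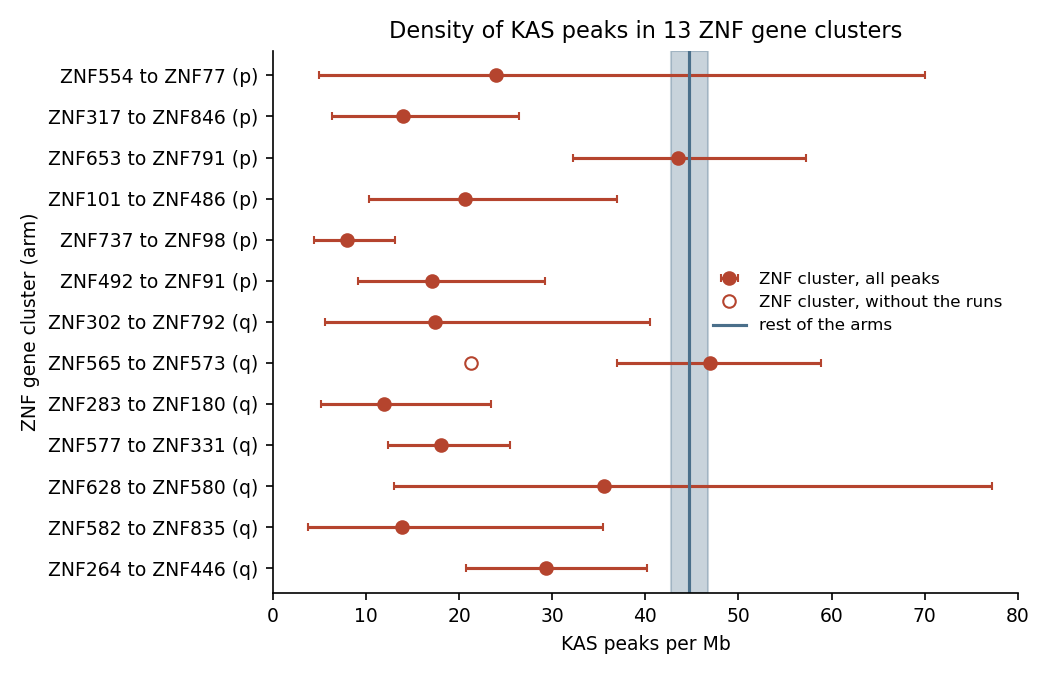
KAS peaks per Mb in each of the 13 ZNF gene clusters (red points, named by their first and last gene, with exact Poisson 95% intervals), in chromosome order, against the rest of the arms (blue line at 44.7 with its interval). The open circle is the cluster ZNF565 to ZNF573 without its 41 run peaks, at 21.3 per Mb, against 46.9 with them.

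Inside the cluster from ZNF565 to ZNF573, 2 runs of closely spaced peaks stood out. A run was defined, after the data were seen, as at least 10 peaks with summits at most 3 kb apart, where the median gap between arm summits was 11.6 kb. The first run, at 36269390 to 36307778, had 22 peaks over 38.4 kb, all within the long noncoding RNA gene CYKILR. The second, at 37270922 to 37301638, had 19 peaks over 30.7 kb in no annotated gene, 11.2 kb from ZNF875. The whole KAS list has 68 such runs on 13 chromosomes.

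The peaks of the runs were regularly spaced and high. In the first run the 21 gaps between summits were of 3 sizes, 6 of 630 to 691 bases, 6 of 1760 to 1900 and 9 of 2385 to 2710. In the second run the 18 gaps were 6 of 510 to 694 bases, 6 of 1871 to 1977 and 6 of 2480 to 2623. A short gap and a middle gap beside it added up to a median of 2504 bases in the first run, over 7 such neighbours, and 2484 in the second, over 11, close to the medians of the large gaps, 2592 and 2539. Pileup was 24 to 62 in the first run with a median of 42, and 23 to 93 in the second with a median of 40, against a median of 9 in the 2225 arm peaks outside the runs. Fold enrichment differed less, with a median of 5.53 in the runs, against 5.18 outside them. Of the 48 arm peaks with a pileup of at least 30, 37 were in these runs. The repeat content of the runs was not analysed here, since no genome sequence was used.

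**Figure D5:**
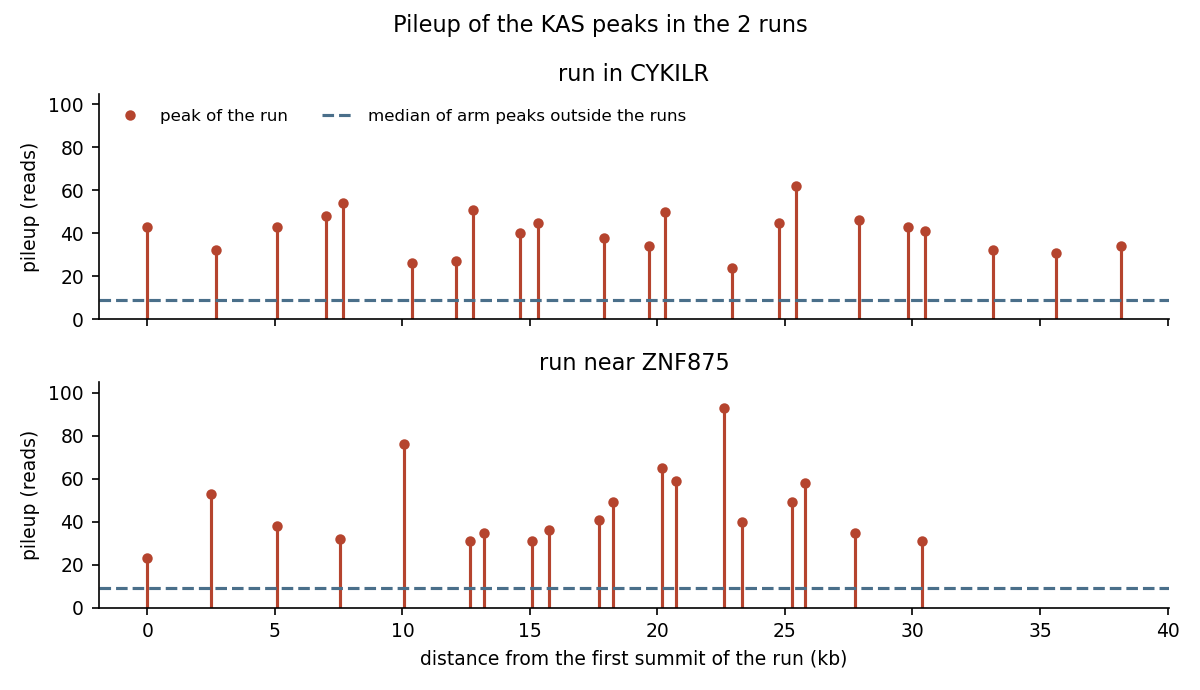
Pileup (reads at the summit) of each peak in the 2 runs against its distance from the run's first summit (kb); the dashed line is the median of 9 over arm peaks outside the runs. Every peak of both runs stands above that line, the lowest at 23, and each run holds both single peaks and close pairs.

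The strongest arm peaks lay in and outside genes alike. Of the 20 of highest fold, 13 were on the p arm and 7 on the q arm, with 10 in a protein-coding gene, 3 in other genes only and 7 in none. The highest, at 1194785 to 1195185, had a fold of 19.7 and lay in no gene, 10.6 kb from STK11, which encodes the kinase LKB1. The next, at 4247513 to 4247830, had a fold of 17.2 and the highest pileup of the arms, 96 reads, and lay in YJU2, a splicing factor gene. PPP5C, for a serine/threonine phosphatase, held a peak of 15.9 at 46389276 to 46389572. The peak at 29899606 to 29899973, 23.7 kb from URI1, reached 12.0, and the one shared by ABHD8 and MRPL34, the last a mitochondrial ribosomal protein gene, reached 11.9.

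The other 15 had folds of 9.60 to 11.3. They included peaks in the collagen gene COL5A3 with 11.2, in TMEM161A and ZNF567 with 10.7 each, in ELAVL3, for a neuronal RNA-binding protein, with 10.4, and in ARID3A, for a DNA-binding protein, and MYO1F, for a myosin of leukocytes, with 9.84 each. A pair stood in CYKILR with 10.3 and 9.66, within the first run, and 1 in the pseudogene CYP4F24P with 10.4. Those in no gene lay nearest to ZNF724, GNG7, NFIX, TNFAIP8L1 and ISOC2, with folds of 11.3, 10.2, 9.92, 9.87 and 9.60. The widest arm peak, 2148 bases, was in MAG, for a myelin glycoprotein, and had a fold of 10.9. After it came peaks in KDM4B, for a histone demethylase, of 1396 bases, in FZR1, for an activator of the anaphase-promoting complex, of 1329, near ISOC2 of 1245, and in MIER2 of 1242.

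The genes with the most peaks were long and mostly of the p arm. INSR, the insulin receptor gene, had 16 over 182 kb. GNG7, for a G protein subunit, and CACNA1A, for a neuronal calcium channel, had 13 each, DNM2, for the endocytic GTPase dynamin, had 12, and SIPA1L3, ZNF536 and the mucin gene MUC16 had 11 each. MYO1F had 10 over 56.7 kb, the highest of the 10 genes for its length at 17.6 per 100 kb, and NFIC, for a transcription factor, and NWD1 had 9 each.

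Genes of neutrophil function held peaks about as often as the other genes of the arms. In the list of neutrophil granule, surface and myeloid genes, 17 of 38 had a peak (44.7%, 28.6 to 61.7), against 45.7% of all 1410 protein-coding genes of the arms. The strongest were in the adhesion receptor genes ADGRE5 with a fold of 8.76 and ADGRE3 with 7.77, in complement C3 with 6.64 and 6 peaks, and in the receptor gene C5AR2 with 6.21. Of the neutrophil and myeloid markers, AZU1, CFD, FPR2, CD33 and TYROBP held 1 peak each. ELANE, PRTN3, PGLYRP1, FPR1, CEACAM6 and CEACAM8 held none. Of immediate early, stress and inflammatory genes, with a median length of 9.42 kb, 15 of 30 had a peak (50.0%, 31.3 to 68.7). They were led by the cytokine gene TNFSF9 with 9.32, the apoptosis gene BBC3 with 8.24, and IL4I1 and TICAM1 with 7.25 each. The immediate early and stress genes FOSB, JUNB, JUND, IER2, GADD45B and PPP1R15A, all short, were among those with no peak. Markers of cell types other than neutrophils had a peak in 9 of 20 cases (45.0%, 23.1 to 68.5), led by MAG with 10.9, SYT3 with 7.77, RYR1 with 6.67 and CACNA1A with 6.34.

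The counts in other tandem families rest on few genes, and are to be read against 45.7% of all genes of the arms and 16.8% of those under 10 kb. Of olfactory receptor genes, with a median length of 8.53 kb, 5 of 20 had a peak (25.0%, 8.66 to 49.1), led by OR1M1 with 6.21, with OR7A5 and OR7C1 sharing a peak of 5.01 and OR7A10 at 4.90. Of cytochrome P450 genes, with a median length of 17.7 kb, 5 of 12 had one (41.7%, 15.2 to 72.3), led by CYP4F22 with 7.22 and CYP4F11 with 7.12, then CYP2S1 with 5.93 and CYP4F2 with 5.43. Of kallikrein genes, with a median length of 7.09 kb, 4 of 15 had one (26.7%, 7.79 to 55.1), KLK7 with 7.23, KLK15 with 6.73, KLK6 with 4.54 and KLK5 with 4.14. Of SIGLEC genes, for sialic acid receptors of leukocytes, 3 of 11 had one (27.3%, 6.02 to 61.0), SIGLEC9 with 5.70, SIGLEC5 with 4.90 and SIGLEC11 with 4.47.

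A pair of further tandem families was nearly free of peaks. Of the 19 LILR, KIR and LAIR genes that the table places on the chromosome itself, which encode receptors of leukocytes and natural killer cells, 1 held a peak (5.26%, 0.133 to 26.0), LAIR1 with a fold of 6.18, and they had 4.44 summits per Mb of gene body. Another 9 are placed on other scaffolds and were not counted. Of 22 CEACAM and PSG genes, for adhesion molecules and pregnancy-specific glycoproteins, 2 did (9.09%, 1.12 to 29.2), CEACAM20 with 6.18 and CEACAM18 with 4.35. Among genes of 10 to 30 kb these were 1 of 10 and 2 of 21, where 58.3% of the arms' genes other than ZNF genes of that length held a peak. No source used here says how the authors treated reads that match several copies of such families, and its part in these counts was not tested.

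The same families filled long stretches with no peak. After the 996 kb gap at 27845709 to 28842170, which carries no protein-coding gene, the longest gap between neighbouring summits was the 683 kb from 54413835 to 55096882. It carries 24 protein-coding genes, 12 of them LILR, KIR or LAIR genes, and also FCAR, the IgA receptor gene of neutrophils, the natural killer receptor gene NCR1, and GP6, the platelet collagen receptor gene. The next, 644 kb from 42697131 to 43341357, carries 10 genes, all PSG genes. The 490 kb from 20580392 to 21070043 and the 480 kb from 22062372 to 22542354 carry 4 and 3 genes, all ZNF genes.

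The last question was whether the arm peaks coincide with DNA captured with thrombin. They did not: 0 of the 2266 arm peaks shared a base with a peak of any of the 4 pulldown lists, where 2.13% of the whole KAS list did. Those lists held 1 peak on the arms in all, so hardly any arm peak could have overlapped one. The count therefore reflects the pulldown lists and says little about the KAS peaks. A count of 0 would allow a share of up to 0.132% only if each arm peak could have overlapped independently. On the other chromosomes 2.26% of KAS peaks did, on chromosome 17 4.85%, on chromosome 22 1.93%, and in the window left out of the arms 6 of 99. The smallest distance from an arm peak to a pulldown peak of chromosome 19 was 197 kb.

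The pulldown lists had almost no peaks on the arms in any replicate. Replicates 1 to 4 held 41, 14, 29 and 40 peaks on chromosome 19, of which 0, 0, 0 and 1 lay on the arms, a mean of 0.25 ± 0.5 (SD, n = 4), and the other 123 of 124 lay in the window. A list with no arm peak allows a share of up to 0.339%, 0.526% and 0.380% of its peaks in replicates 1 to 3. The single arm peak, in replicate 4, lay at 24418898 to 24419359, 81.1 kb before the window, with a fold of 3.32, and was 237 kb from the nearest arm KAS peak and 289 kb from ZNF254.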

How the data were processed

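Peaks were called with MACS2 2.2.7.1 on GRCh38.p13 after BWA alignment, per the submitters' processing notes. The deposited lists give each peak's pileup signal, −log10 p and q values, and fold ratio over background, made by the authors. Every arm peak had a −log10 q of at least 2.06, per the deposited values. KAS peak numbers begin at 1951, and lower ones were not analysed here. Genes, names and promoters came from RefSeq GRCh38.p14 tables, and coordinates are 1-based. The gene table gives 718 genes of other scaffolds under a chromosome's name, 41 of them protein-coding genes under chromosome 19, and these were left out. Overlap means at least 1 shared base. A gene lies in the step that holds its middle, and a peak in that of its summit. Shares have Clopper-Pearson intervals and densities exact Poisson intervals at 95%. No test was run, since there is 1 KAS library, and depth is unknown. Named items were the 20 arm peaks of highest fold, the 5 widest, the 5 fullest and emptiest steps, the 10 ZNF genes with the strongest and with the most peaks, the 10 genes with the most peaks, and up to 4 genes per list. Some items are not reported here. Members and lists were chosen with earlier results of these data known. Python 3.11.15, NumPy 2.4.6, pandas 2.3.3, SciPy 1.17.1 and matplotlib 3.10.9 were used, and counting was checked against bedtools 2.31.1 (644 genes with an arm peak by both) and on simulated data.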

Additional observations from a re-analysis of the deposited data

Results flagged for a closer look

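A pair of values of the 4 pulldown lists stood far from the others by Dixon's criterion. The number of pulldown peaks on the chromosome 19 arms was 1 in replicate 4, against 0 in the other lists. The number of KAS peaks of the centromere window that overlap a peak of the list was 4 in replicate 1, against 1 in each of the other lists. In both sets the other 3 values are tied, so any different value would have passed. Of the 6 sets of 4 values examined 2 passed. The criterion's chance rate of about 1 set in 20 does not hold for tied counts like these. The sets are also not independent, since arm and window peaks together make up the chromosome 19 peaks.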

How the results depend on the processing

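Of 44 alternatives, 30 left a count within 1.5 times, another value within its 95% interval, or a mean over lists within 1 SD, and none reversed a direction. Counts were not scored for direction, so they could not reverse. Of these 30, 6 concern the 0 overlaps with the pulldown and could only give 0 again. The overlap within 1 kb was also bound to be 0, since the nearest pulldown peak lay 197 kb away. Leaving out 1 of 4 lists cannot move their mean by 1 SD. Leaving out peaks at the pileup ceiling of 200 removed no arm peak, as these reached 96. Such settings say nothing about robustness. The number of arm peaks fell to 1013 with the 50% of peaks of higher fold and to 866 at a −log10 q of at least 5, where the density over the other chromosomes was 3.40 and 3.07 times, against 4.08 times with a window 2 Mb wider on each side. The rank correlation with genes was 0.202 with all annotated genes. The ratio of ZNF to other genes with a peak was 0.609 within 1 kb of a gene end, 0.597 with the 50% of peaks of higher fold, and 0.410, 0.576 and 0.536 among genes under 10 kb, of 10 to 30 kb and over 100 kb. The ratio of ZNF clusters to the rest was 0.456 without the runs, 0.336 on the p arm alone and 0.816 on the q arm alone, and these 3 settings were chosen after seeing the data. Leaving out each pulldown replicate in turn gave a mean of 0 to 0.333 arm peaks per list, 0 without replicate 4. The causes were not tested. No paired analysis was possible because no test was run and the input libraries, which share replicate numbers with the pulldown libraries, were not analysed here. Unknown depth limits what an absent peak can show.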

Other observations

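Between the SNAR genes of 2 tandem arrays on the q arm, which encode small noncoding RNAs, KAS peaks had high pileups. The genes themselves held none: 0 of the 26 SNAR genes shared a base with a KAS peak. SNAR-E, SNAR-F and the stretch from SNAR-G2 to SNAR-G1 also had 0 peaks. Between the first and the last gene of the array at 47907678 to 47955801, which holds 10 of them, lay 10 peaks with pileups of 12 to 33 and a median of 20.5. In the array at 50092489 to 50140320, with 12 genes, lay 11 peaks with pileups of 13 to 28 and a median of 17. The median pileup over arm peaks outside the 2 runs was 9, and their median fold was 5.18. Fold differed less: the peaks of the array at 47907678 to 47955801 with a pileup of at least 30 had folds of 5.16, 6.55 and 6.77.

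Of the 130 miRNA hairpins that the RefSeq table places on chromosome 19, 0 shared a base with a KAS peak, which allows a share of up to 2.31%, and 4 of all 1562 hairpins of the table did.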
